A study of Mus musculus with 8 samples.

Results

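The 10 genes described here encode the NRF2 axis and antioxidant enzymes of bone-forming cells: the transcription factor NRF2 (Nfe2l2) and its inhibitor KEAP1 (Keap1), and the enzymes Hmox1, Nqo1, Gclc, Gclm, Txnrd1, Srxn1, Sod2 and Sod3. They were picked by symbol from the 47706 genes of the deposited count table, and each of the 10 had a single entry and passed the filter on low counts that left 16736 genes. RNA sequencing was performed on calvarial osteoblasts, isolated from the skullcap of newborn mice, differentiated until day 7 and then given PTH (4 cultures) or vehicle (4 cultures) for 24 hours after serum starvation. The labels call the differentiation adipogenic, whereas the study's methods describe osteogenic medium, and they do not explain the prefix Con that every sample name carries. No genotype, strain or animal age is given for the samples in the labels, which also do not say whether the cultures of a treatment came from separate preparations of cells, so p-values measure the spread between these samples.

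NRF2 is held in the cytoplasm by KEAP1, which presents it to a ubiquitin ligase for destruction. When reactive cysteines of KEAP1 are modified by oxidants or electrophiles, NRF2 escapes, pairs with a small MAF protein and binds antioxidant response elements in the promoters of detoxifying genes, where it competes with the heme-sensitive repressor BACH1. In bone, reactive oxygen species are known to restrain osteoblasts and to favor osteoclasts.

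Total counts per culture ranged from 33605610 to 56090654. The 10 osteoblast markers examined had a median of 301 to 537 CPM (the read count of a gene relative to the normalized size of its library) over the 8 cultures, against 4.35 to 6.59 CPM for 6 adipocyte markers and 0.196 to 0.767 CPM for 6 endothelial markers, of which Emcn had no count in any culture. Of the osteoblast markers, 3 were downregulated without overlap between treatments and none was upregulated. The 30.0% called compares with 45.8% of all genes tested, and 21.8% of all genes were lower without overlap. The other 7 markers (Col1a1, Col1a2, Alpl, Bglap, Ibsp, Spp1 and Sparc) were not called. Sp7, which encodes osterix, fell from 103 ± 29.6 to 30.1 ± 3.26 CPM (log2 fold change -1.78), and the decreases of Dmp1 (-1.12) and Runx2 (-0.33) were smaller. Their part in the changes of the 10 genes was not tested. Tnfsf11, which encodes RANKL and served as a check of the treatment labels, rose from 1.42 ± 0.365 to 128 ± 20.01 CPM (SD, n = 4). A list of 10 macrophage markers was present throughout, and its summed level was 976 to 1583 CPM with vehicle and 1537 to 1996 CPM with PTH. The sums of the treatments overlapped through vehicle replicate 4, and the other vehicle sums were at most 1178 CPM. Most of each sum was Lyz2, with 748 to 1181 CPM in vehicle-treated and 1170 to 1593 CPM in PTH-treated cultures. Of these 10 markers, 3 (Lyz2, Cd14 and Tyrobp) were upregulated, 30.0% against 23.3% of all genes tested. The other 7, among them Adgre1, Csf1r and Cd68, were not called. In RNA from whole cultures, more cells of a type and more RNA per cell cannot be told apart.

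PTH raised the transcripts of NRF2 itself and of 5 of the 8 enzymes, lowered those of KEAP1 slightly, and left 3 enzymes below the threshold of the test. Of the 10 genes, 6 were upregulated and 1 was downregulated at an adjusted p under 0.05 by edgeR's quasi-likelihood test, whereas 45.8% of all genes tested were differentially expressed, 23.3% upwards and 22.5% downwards. In the same 7 genes, no PTH-treated culture overlapped a vehicle-treated culture, which held for 43.0% of all genes tested, 21.2% upwards and 21.8% downwards. The median log2 fold change of the 10 genes was 0.57, and that of all genes tested was -0.000814. The increases spanned from 1.33-fold for Hmox1 to 6.77-fold for Srxn1.

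**Figure D1:**
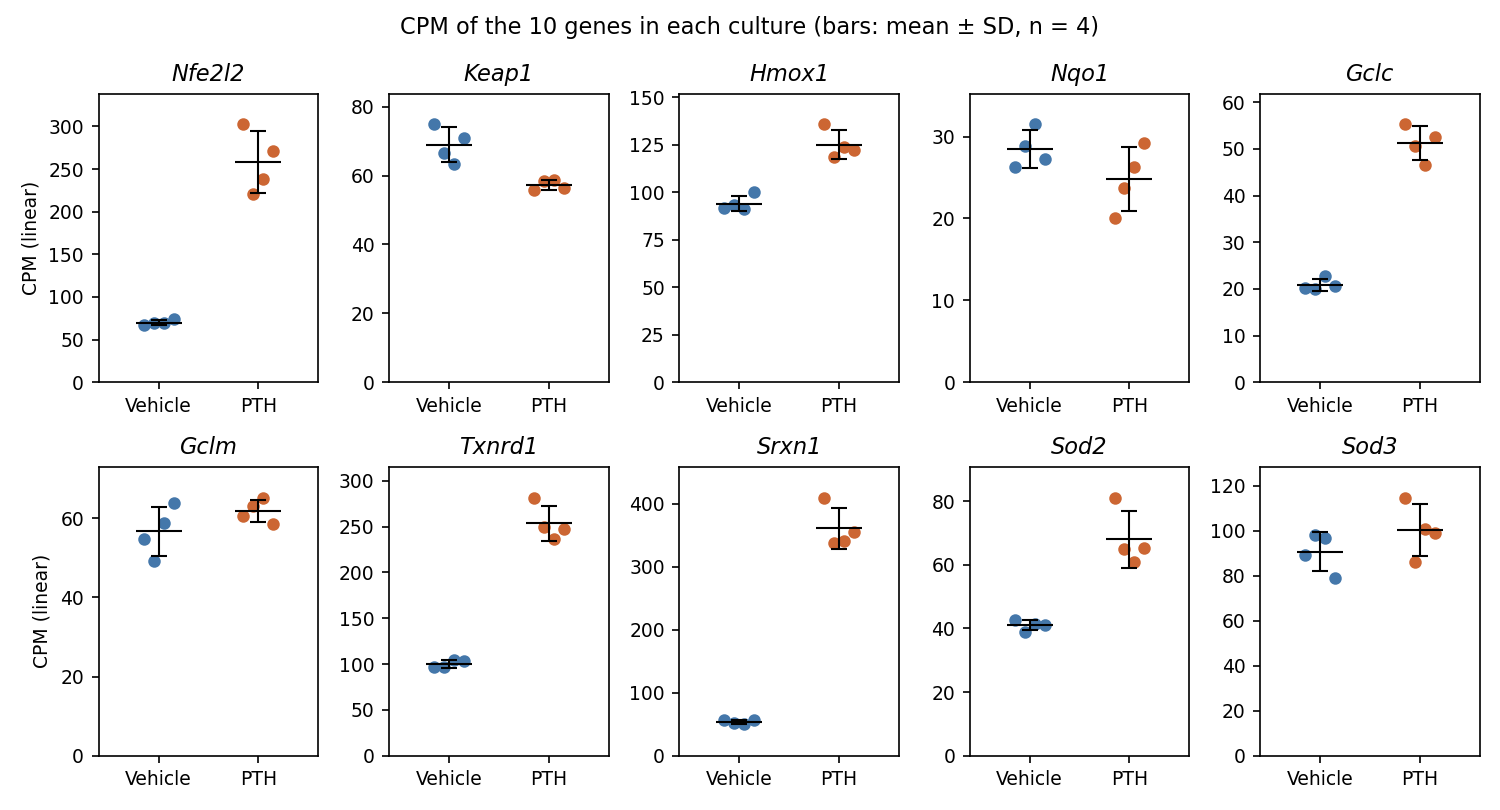
CPM (linear axes from 0) of each of the 10 genes in the 4 vehicle-treated (blue) and 4 PTH-treated (orange) cultures, with the mean and SD as bars. The groups are apart for 7 genes and overlap for Nqo1, Gclm and Sod3, and Srxn1 has the widest gap, from at most 56.1 CPM with vehicle to at least 338 CPM with PTH.

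Promoter sequences were examined because several of these genes rose together. RefSeq windows of 300 bases (250 before and 50 after a transcription start, build GRCm38.p6) were held for 7 of the 10 genes. Hmox1, Gclc and Sod3 had no window. Both strands were searched for the core of the antioxidant response element, TGACNNNGC, for its variant TGAGNNNGC, and for the full cAMP response element TGACGTCA, the site of CREB downstream of PTH. The variant can overlap the binding sequence of AP-1, TGAGTCA, which the Srxn1 match TGAGTCAGC below contains whole. The stretches below carry the matches that lie upstream of a start, printed 5′ to 3′ on the strand of the gene, with the matched bases in capitals.
Srxn1, chr2:152105344-152105493, plus strand: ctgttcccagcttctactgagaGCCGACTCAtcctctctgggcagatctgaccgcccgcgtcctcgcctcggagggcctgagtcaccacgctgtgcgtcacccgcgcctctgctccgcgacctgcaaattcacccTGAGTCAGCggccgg
Txnrd1, chr10:82859086-82859145, plus strand: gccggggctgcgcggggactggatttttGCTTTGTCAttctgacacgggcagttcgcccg
Nfe2l2, chr2:75704854-75704913, minus strand: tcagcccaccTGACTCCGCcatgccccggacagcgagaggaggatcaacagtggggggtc
Gclm, chr3:122245397-122245456, plus strand: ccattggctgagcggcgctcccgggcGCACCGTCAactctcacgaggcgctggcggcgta

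Srxn1, the gene with the largest increase, had 2 TGAGNNNGC matches before its start, 45 to 37 bases upstream on the strand of the gene and 158 to 150 bases upstream on the opposite strand, and a TGACNNNGC match 28 bases after it that is not printed. Txnrd1 had a TGACNNNGC match 92 to 84 bases before the second of its 3 starts, Nfe2l2 had one 240 to 232 bases upstream, and Gclm, which was not called, had one 134 to 126 bases upstream. The stretch of Nfe2l2 also lies in an annotated exon of the neighboring noncoding gene E030042O20Rik. Keap1, Nqo1 and Sod2 had none of the 3 motifs in their windows, and TGACGTCA was found in no window of the 7 genes. Sequence outside the windows and shorter forms of TGACGTCA were not searched. Over all 32851 windows, 12.4% held TGACNNNGC, 17.6% held TGAGNNNGC and 1.79% held TGACGTCA. Since the genes were searched for both TGACNNNGC and TGAGNNNGC, the matching share is that of windows with either, 27.8%. These shares are per window, whereas Txnrd1 was searched in 3 windows. Whether the 7 genes held more matches than other genes was not tested. The matches in the 7 genes are descriptions of the sequence, and no binding was measured.

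Nfe2l2, on chromosome 2 from 75675513 to 75704641, encodes NRF2. Its level was 66.7, 69.7, 69.3 and 73.8 CPM in vehicle replicates 1 to 4 and 302, 220.5, 239 and 271 CPM in PTH replicates 1 to 4. Every PTH-treated culture was thus well above every vehicle-treated culture, although the PTH-treated cultures were more spread out, with a coefficient of variation of 14.0% against 4.22%. This was a 3.70-fold increase (log2 fold change 1.89 ± 0.0952 SE, adjusted p = 1.38e-08).

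Keap1, on chromosome 9 from 21229730 to 21239361, encodes the adaptor that marks NRF2 for degradation. Its level was 74.8, 66.4, 63.5 and 71.0 CPM with vehicle and 55.8, 58.3, 58.7 and 56.2 CPM with PTH. The highest PTH-treated culture lay below the lowest vehicle-treated culture, but the change was small. Keap1 was lower by 16.97% (log2 fold change -0.27 ± 0.0662 SE, adjusted p = 0.00557). An exon of Keap1 overlaps Gm16754 on the opposite strand, and their transcripts share up to 209 bases at 95% identity or more. Since the strand setting of the counting is not stated, reads of the overlap cannot be told apart.

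The balance of the pair within each culture does not depend on scaling between libraries. The ratio of Nfe2l2 to Keap1 counts was 0.891 to 1.09 with vehicle and 3.78 to 5.42 with PTH, a mean log2 difference of 2.14. In an exact permutation test over the 70 assignments of the cultures, the two-sided p was 0.0286, the smallest that 4 against 4 allows, and 0.0343 after adjustment over the 6 gene pairs compared. Nfe2l2 rose and Keap1 fell without overlap, so the smallest p was fixed before this test and adds nothing to those changes. All 6 pairs were chosen by role with the fold changes known. The p-values given below for Hmox1 to Nqo1, Gclc to Gclm, Srxn1 to Txnrd1 and Sod2 to Sod3 therefore add no support to those fold changes.

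Hmox1, on chromosome 8 from 75093621 to 75100589, encodes heme oxygenase-1, which opens the heme ring to biliverdin, carbon monoxide and iron. It had 91.5, 93.4, 91.3 and 100.1 CPM with vehicle and 136, 119, 124 and 122 CPM with PTH. All PTH-treated cultures were above all vehicle-treated cultures. At 1.33-fold it was the smallest of the 6 increases (log2 fold change 0.41 ± 0.0642 SE, adjusted p = 2.48e-04). Hmox1 is also expressed by macrophages, whose 10 markers had a median log2 fold change of 0.38 in the same cultures, and their part in the change of Hmox1 was not tested.

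Nqo1, on chromosome 8 from 107388225 to 107403206, encodes the quinone reductase often used as a readout of NRF2 activity. Its level was 26.3, 28.9, 31.5 and 27.2 CPM with vehicle and 20.1, 23.7, 26.3 and 29.3 CPM with PTH. The treatments overlapped, with 2 PTH-treated cultures below all vehicle-treated cultures and none above them. The change did not pass the test (log2 fold change -0.20, 95% interval -0.44 to 0.04, adjusted p = 0.166). Within cultures, the ratio of Hmox1 to Nqo1 counts was 2.90 to 3.68 with vehicle and 4.17 to 6.75 with PTH (exact permutation test, two-sided p = 0.0286, adjusted p = 0.0343).

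**Figure D2:**
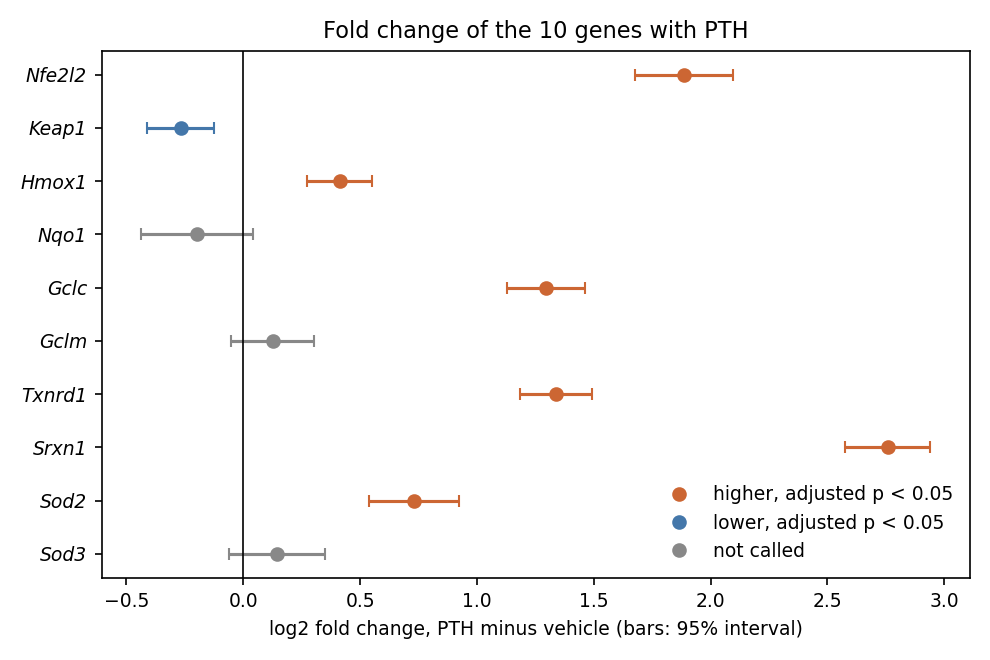
Log2 fold change (PTH minus vehicle, linear axis in log2 units) of the 10 genes from the edgeR fit of 4 against 4 cultures, with 95% intervals as bars. The intervals of Nqo1, Gclm and Sod3 cross 0, that of Keap1 lies below it, and Srxn1 stands farthest to the right at 2.76.

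Glutathione, the main small thiol of the cell, is made in a first, rate-limiting step by glutamate-cysteine ligase, whose catalytic subunit is encoded by Gclc and modifier subunit by Gclm. Gclc, on chromosome 9 from 77754535 to 77794485, had 20.2, 19.9, 22.7 and 20.6 CPM with vehicle and 55.2, 50.5, 46.6 and 52.5 CPM with PTH. The groups were far apart, with a 2.46-fold increase (log2 fold change 1.30 ± 0.0763 SE, adjusted p = 5.29e-08).

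Gclm, on chromosome 3 from 122245557 to 122270732, had 54.8, 49.2, 58.8 and 63.7 CPM with vehicle and 60.5, 63.1, 65.1 and 58.6 CPM with PTH. A single PTH-treated culture was above all vehicle-treated cultures. Its change was within the spread (log2 fold change 0.13, 95% interval -0.05 to 0.30, adjusted p = 0.229). Exons of Gclm overlap Gm6061 on the same strand, which the assembly holds in the same locus, and Gm17494 on the opposite strand, and their reads cannot be told apart. The subunits of the same enzyme differed in their change. The ratio of Gclc to Gclm counts was 0.323 to 0.405 with vehicle and 0.715 to 0.913 with PTH, a mean log2 difference of 1.16 (exact permutation test, two-sided p = 0.0286, adjusted p = 0.0343).

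Txnrd1, on chromosome 10 from 82833951 to 82897712, encodes the cytosolic thioredoxin reductase, a selenoprotein that passes electrons from NADPH to thioredoxin. It had 96.9, 96.7, 104 and 103 CPM with vehicle and 281, 249, 236 and 248 CPM with PTH. The groups did not overlap, and PTH gave a 2.53-fold increase (log2 fold change 1.34 ± 0.0704 SE, adjusted p = 1.96e-08).

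Srxn1, on chromosome 2 from 152105516 to 152111376, encodes sulfiredoxin, which restores peroxiredoxins whose active cysteine has been overoxidized. Its level was 56.1, 51.3, 49.8 and 56.1 CPM with vehicle and 409, 338, 341 and 355 CPM with PTH. The change was the largest of the 10 genes, at 6.77-fold (log2 fold change 2.76 ± 0.0831 SE, adjusted p = 1.30e-10), and ranked 288 from the top among the 16736 genes tested. Srxn1 had fewer counts than Txnrd1 with vehicle (ratio 0.477 to 0.579) and more counts than Txnrd1 with PTH (ratio 1.36 to 1.45). The mean log2 difference of that ratio between treatments was 1.42 (exact permutation test, two-sided p = 0.0286, adjusted p = 0.0343).

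Superoxide dismutases convert superoxide to hydrogen peroxide. Sod2, on chromosome 17 from 13006846 to 13040063, encodes the manganese enzyme of the mitochondrial matrix and had 42.7, 38.8, 41.4 and 41.0 CPM with vehicle. With PTH it had 81.0, 64.9, 60.8 and 65.2 CPM, all above the vehicle-treated cultures. Sod2 was thus upregulated 1.66-fold (log2 fold change 0.73 ± 0.0877 SE, adjusted p = 3.10e-05). Sod2 shares stretches of up to 193 bases with 11 other genes at 95% identity or more.

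Sod3, on chromosome 5 from 52363791 to 52371418, encodes the secreted copper and zinc enzyme of the extracellular space. It had 89.5, 98.1, 96.8 and 78.9 CPM with vehicle and 115, 86.3, 101 and 99.2 CPM with PTH. Although 3 PTH-treated cultures were above all vehicle-treated cultures, PTH replicate 2 lay among the latter. The difference did not pass the test (log2 fold change 0.14, 95% interval -0.06 to 0.35, adjusted p = 0.236). The ratio of Sod2 to Sod3 counts was 0.396 to 0.520 with vehicle and 0.604 to 0.752 with PTH, a mean log2 difference of 0.58 (exact permutation test, two-sided p = 0.0286, adjusted p = 0.0343).

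**Figure D3:**
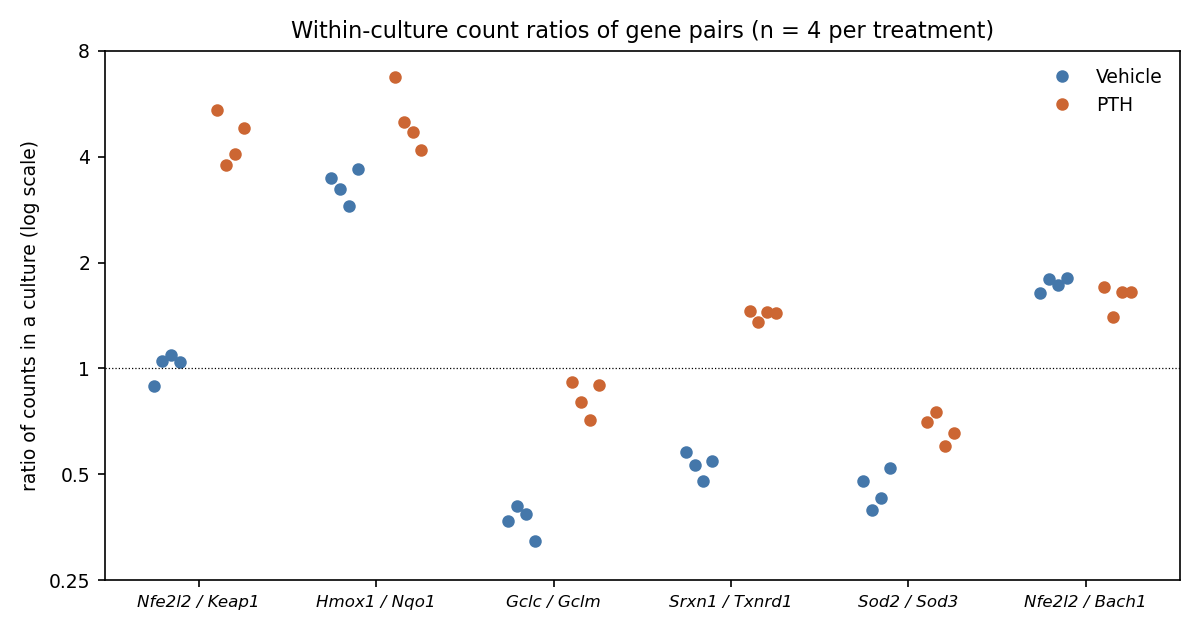
Ratio of the counts of 2 genes within each culture (log axis) for 6 pairs, with 4 vehicle-treated cultures in blue and 4 PTH-treated cultures in orange. The treatments are apart for the first 5 pairs, most widely for Nfe2l2 over Keap1, and overlap for Nfe2l2 over Bach1, where the ratio is 1.64 to 1.80 with vehicle and 1.40 to 1.70 with PTH.

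To compare levels between genes, CPM was divided by the length in kilobases of the longest coding transcript. With vehicle, Hmox1 was the most abundant of the 10 at 60.0 ± 2.64 CPM per kilobase, followed by Nfe2l2 (28.2 ± 1.19) and Txnrd1 (27.7 ± 1.11), whose cultures overlapped. Gclc was the lowest at 6.09 ± 0.374 CPM per kilobase and overlapped with Sod2. With PTH the order changed: Srxn1, sixth with vehicle at 19.0 ± 1.16 CPM per kilobase, came first at 128 ± 11.8 CPM per kilobase, and its cultures overlapped with those of Nfe2l2 at 104 ± 14.6. Hmox1 came next at 79.8 ± 4.71 CPM per kilobase and overlapped with Txnrd1. From Nqo1 down to Gclm (11.1 ± 0.515), each of the 5 lowest genes overlapped with the next.

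PTH replicate 1, the deepest library, had the highest PTH value for 7 of the 10 genes (Nfe2l2, Hmox1, Gclc, Txnrd1, Srxn1, Sod2 and Sod3) and the lowest for Nqo1 and Keap1. Over all genes tested, it was the highest PTH-treated culture for 29.9%. Without it, the log2 fold change was 1.80 for Nfe2l2, 2.69 for Srxn1, 1.28 for Txnrd1, 1.25 for Gclc, 0.63 for Sod2 and 0.37 for Hmox1. All of these were still called. The log2 fold change of Nqo1 without it was -0.11 (adjusted p = 0.373) and that of Sod3 was 0.07 (adjusted p = 0.542).

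The other genes of the pathway were taken from 8 lists. Of 125 listed genes, 120 were tested, and 43 of these rose and 22 fell, 35.8% and 18.3% against 23.3% and 22.5% of all genes tested. Their median log2 fold change was 0.09. Shares of called genes below are to be read against the 45.8% of all genes tested. Among 14 regulators of NRF2, 6 rose and 3 fell (64.3% called). Maff, which encodes a small MAF partner, had 2.46 to 4.75 CPM with vehicle and 69.2 to 133 CPM with PTH (log2 fold change 4.73, adjusted p = 2.30e-08). Bach1, which encodes the repressor that competes with NRF2 for the same sites, increased from 40.2 ± 0.984 CPM in vehicle-treated to 161 ± 13.6 CPM in PTH-treated cultures (log2 fold change 2.0, adjusted p = 5.23e-10). The ratio of Nfe2l2 to Bach1 counts overlapped between treatments, with a mean log2 difference of -0.12 (exact permutation test, two-sided p = 0.114, adjusted p = 0.114), so that a difference in their increases was not detected in 4 against 4 cultures. The downregulated regulators included Dpp3 (log2 fold change -0.48) and Btrc (-0.29), which encode a KEAP1-binding peptidase and a ubiquitin ligase subunit.

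Beside Gclc and Gclm, 8 of 30 tested genes of glutathione synthesis and use were upregulated, 26.7% against 23.3% of all genes tested, and 3 were downregulated. The 36.7% called in all was below the share over all genes. Increases were led by Slc3a2 (log2 fold change 1.44, adjusted p = 2.62e-09) and Ggct, which acts in glutathione breakdown (1.15, adjusted p = 1.90e-05). Slc3a2 encodes a heavy chain shared by the cystine transporter and other amino acid transporters. The glutathione-degrading enzymes Chac1 (-0.63, adjusted p = 0.0443) and Chac2 (-0.57, adjusted p = 0.0331) fell, each on at most 336 counts per culture. Neither call was stable when 1 culture at a time was left out. Chac1 was then called in 3 of 8 fits (adjusted p up to 0.161) and Chac2 in 5 of 8 (up to 0.0932). Both genes remained lower with PTH in all of these fits. Slc3a2 shares stretches of up to 182 bases with 128 other genes at 95% identity or more.

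Beside Txnrd1 and Srxn1, 8 of 15 genes of the thioredoxin and peroxiredoxin system rose and 2 fell (66.7% called), none by 2-fold or more. Prdx2, a peroxiredoxin (log2 fold change 0.58), and Txn1, thioredoxin itself (0.52), led the increases, and the decreases were those of Txnrd3 (-0.56) and Msrb2 (-0.43). Msrb2 kept its call in 3 of 8 fits with 1 culture left out (adjusted p up to 0.115). Exons of Prdx2 overlap Junb and Rnaseh2a on the opposite strand. Beside Sod2 and Sod3, 4 of 6 genes for Sod1, catalase, metallothioneins and their helpers rose (83.3% called in either direction). The metallothionein genes Mt2 (log2 fold change 3.78, adjusted p = 2.38e-09) and Mt1 (2.54, adjusted p = 1.12e-09) led, and Cat, which encodes catalase, was the only one to fall (-0.33, adjusted p = 3.98e-04).

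Beside Hmox1, 6 of 13 genes of heme and iron handling rose and 3 fell (69.2% called). Alas1, which starts heme synthesis, increased from 48.5 ± 2.53 CPM in vehicle-treated to 240.2 ± 18.8 CPM in PTH-treated cultures (log2 fold change 2.31, adjusted p = 2.42e-10), and Tfrc, the transferrin receptor, had a log2 fold change of 1.26 (adjusted p = 5.41e-07). Among the decreases were the iron exporter Slc40a1 (-1.29, adjusted p = 2.62e-08) and Alad, of heme synthesis (-0.44, adjusted p = 0.0290), which kept its call in 4 of 8 fits with 1 culture left out (adjusted p up to 0.0920). Among 10 NADPH-generating enzymes, only Pgd rose (log2 fold change 1.19, adjusted p = 1.14e-07), and Idh1 (-0.54) and Idh2 (-0.23) fell. That is 30.0% called, below the share over all genes, and Idh2 kept its call in 4 of 8 fits with 1 culture left out (adjusted p up to 0.0626). Of 23 genes listed as other NRF2 target and detoxication genes, 6 rose and 7 fell (56.5% called). The named changes ran from Aldh3a1 (3.49, adjusted p = 1.23e-09) and Ugdh (2.55, adjusted p = 3.97e-11) to Sesn3 (-0.58) and Sesn1 (-1.16). Whether each listed gene is a target of NRF2 in these cells was not tested. The assembled locus of Ugdh also holds Smim14 and Gm43552. Antisense genes also overlap exons of Btrc, Mt2 and Alas1.

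**Figure D4:**
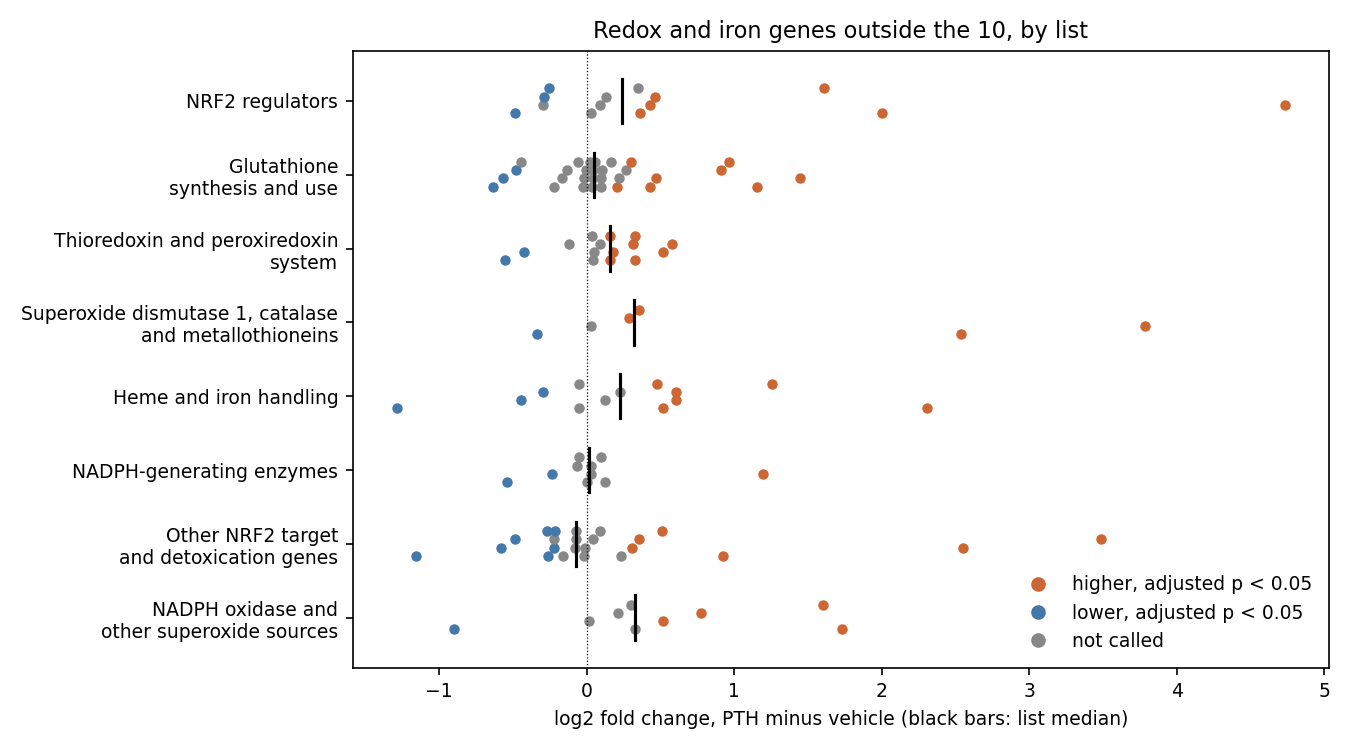
Log2 fold change (PTH minus vehicle, linear axis in log2 units) of the 120 tested genes of the 8 lists outside the 10 genes; each point is a gene, black bars are list medians, and color gives the edgeR call at an adjusted p under 0.05. Most points lie near 0, and Maff at 4.73 and Mt2 at 3.78 stand farthest to the right.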

How the data were processed

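The authors deposited counts, whole numbers per gene and sample that are not normalized. Per their methods and processing notes, poly(A) RNA was sequenced, HISAT2 mapped the reads (GRCm38), SAMtools sorted the alignments, and StringTie2 with its companion script derived each count from transcript coverage. The annotation, the strand setting and the read length given to that script are not given in the sources used here. Counts were compared with edgeR 4.0.16 (TMM, two-sided quasi-likelihood F-test, filterByExpr with a minimum count of 10 and total of 15) in R 4.3.3, with Benjamini-Hochberg adjustment over 16736 genes. The fit was tried on simulated counts in which a small share of genes changed, so it does not test a response as wide as this. CPM use TMM-normalized library sizes. The standard error is the log2 fold change divided by the square root of F. Ratios of counts within a culture were compared by exact permutation tests on the log2 scale, a test added with the fold changes known. Positions and lengths are from GENCODE M21. Similar transcripts were sought with blastn 2.17.0 over at least 150 bases.

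The 10 genes, the lists and the pairs were chosen with earlier results of these data known. In each list, the 2 called genes with the largest change in each direction were named, and Tnfsf11 as a check. Of the listed genes, 4 had too few counts and Selenop was not matched by symbol. The alternatives were DESeq2 1.42.0, its size factors, no filter, the replicate number as a block, each culture left out, counts halved and counts summed by symbol. Tables and plots were made in Python 3.11.15 with pandas 2.3.3, NumPy 2.4.6 and matplotlib 3.10.9.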

Additional observations from a re-analysis of the deposited data

Results flagged for a closer look

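In none of the 10 genes did a culture stand far from the other 3 of its treatment by Dixon's criterion. Among the 29 named genes of the other lists, 7 values did, out of 78 groups of 4 examined with the 10 genes included, and chance alone gives about 1 in 20. PTH replicate 1 had 98.7 CPM of Mt2, where the other PTH-treated cultures had at most 71.4, and 214 CPM of Tfrc, where the others had at most 165. PTH replicate 2 had 24.6 CPM of Btrc, against at most 21.6 in the others. PTH replicate 3 had 211 CPM of Pgd, and the other 3 lay close together between 220.4 and 221.0. Vehicle replicate 4 had 5.54 CPM of Chac2, against at most 4.4, and 68.6 CPM of Sesn1, against at least 71.8. Vehicle replicate 3 had 24.5 CPM of Xdh, against at least 26.6.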

How the results depend on the processing

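Under each of the 14 alternatives, 6 of the 10 genes were upregulated and 1 was downregulated. Over these alternatives the log2 fold change lay between 2.69 and 2.80 for Srxn1, 1.80 and 1.96 for Nfe2l2, and -0.31 and -0.23 for Keap1. Among the genes that were not called, the adjusted p was never under 0.05, with a lowest value of 0.0520 for Nqo1, 0.0569 for Sod3 and 0.0909 for Gclm. The number of called genes in the other lists lay between 52 and 65, and over all genes between 6671 and 8074. Of the 29 named genes of the other lists, 5 lost their call when certain cultures were left out, and none changed direction. Without vehicle replicate 4, the adjusted p was 0.161 for Chac1, 0.0932 for Chac2, 0.0920 for Alad, 0.0599 for Msrb2 and 0.0549 for Idh2. Calls were also lost without PTH replicate 1 (Chac1, Chac2, Alad), PTH replicate 2 (Chac1, Msrb2, Alad), PTH replicate 3 (Chac1, Msrb2, Idh2), PTH replicate 4 (Chac2), vehicle replicate 1 (Msrb2, Idh2), vehicle replicate 2 (Chac1, Alad, Idh2) and vehicle replicate 3 (Msrb2), with adjusted p values of 0.0540 to 0.115. Without the filter, Chac1 had an adjusted p of 0.0584. The labels number the cultures 1 to 4 in each treatment. After removal of the treatment means, same-numbered cultures had correlations across genes of -0.0409 to 0.0274, so the numbers were not taken as pairs. With the replicate number as a block, 7 of the 10 genes, 59 genes of the other lists and 7003 of all genes were called. Counts per culture ranged from 787 to 20977 for the 10 genes and from 5 to 55 for Duox1, where the depth limits the fold change most.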

Other observations

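The list of superoxide sources, counted above among the 8 lists, holds 12 genes. Of these, 9 were tested, 4 rose and 1 fell, and the 55.6% called compares with 45.8% of all genes tested. Xdh, which encodes xanthine oxidoreductase, increased from 26.2 ± 1.13 CPM in vehicle-treated to 79.7 ± 11.02 CPM in PTH-treated cultures (log2 fold change 1.6, adjusted p = 5.07e-08). Nox4, the main NADPH oxidase of mesenchymal cells, fell from 16.03 ± 2.23 to 8.58 ± 0.921 CPM (a log2 difference of -0.90, adjusted p = 7.30e-05). Duox1 was also called (log2 fold change 1.73, adjusted p = 0.0138), on 5 to 55 counts per culture. The other 2 upregulated genes, Cyba and Ncf4, encode oxidase subunits that macrophages also express, and were named after their values were seen.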
